A study of Mus musculus with 5 samples.

Results

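The *Dlx* and *Msx* homeobox genes are described here as a family of 8 genes, *Dlx1*, *Dlx2*, *Dlx3*, *Dlx4*, *Dlx5*, *Dlx6*, *Msx1* and *Msx2*, chosen by name and matched to the Ensembl identifiers of the count table. All 8 were among its 30046 features. The cells were marrow stromal cells sorted by flow cytometry from the femurs of mice at postnatal day 21, after the distal growth plates had been removed. Every mouse carried Cxcl12(GFP/+), which marks CXCL12-abundant reticular (CAR) stroma with GFP, and R26R(tdTomato/+), a reporter that switches on tdTomato for good in a cell and its descendants once a Cre recombinase has acted. In 3 libraries, called Dlx5CE-E12.5, the recombinase was the tamoxifen-dependent creER of the Dlx5(CreER/+) genotype, which is active in perichondrial cells of the fetal limb. In 2 libraries, called Fgfr3CE-E12.5 and numbered 2 and 3, it was the Fgfr3-iCreER transgene, which is active in fetal chondrocytes. Both groups received a single tamoxifen pulse at embryonic day 12.5, and the sorted cells were positive for tdTomato and high for GFP. Cells were pooled by genotype from 4 mice per group, and how the mice map to libraries is not given in the sources used here.

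Dlx and Msx proteins are transcription factors that bind short AT-rich DNA motifs through a homeodomain. Dlx proteins mostly activate transcription, Msx proteins mostly repress it, and members of both families can bind each other and so block each other's action. The *Dlx* genes lie in the genome as convergent pairs, each pair sharing enhancers, and BMP signals raise the transcription of several *Dlx* and *Msx* genes in the skeleton. In bone, *Dlx3*, *Dlx5* and *Dlx6* promote osteoblast differentiation, and *Msx1* and *Msx2* act in skeletal progenitors.

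Of the 8 genes, *Dlx6* was higher in Dlx5CE-E12.5 cells, whereas its pair partner *Dlx5*, whose locus carries the creER used to label these cells, had a lower level there than in Fgfr3CE-E12.5 cells. *Msx1* was expressed in both groups with a small difference. *Dlx3* was low in both groups and higher in Fgfr3CE-E12.5 cells, *Msx2* was near the limit of detection in Dlx5CE-E12.5 cells and low in the others, *Dlx4* was low in both, and *Dlx1* and *Dlx2* had no counts in Dlx5CE-E12.5 cells.

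The *Dlx* genes are similar in sequence in the homeobox, the 180 coding bases of the homeodomain, and those of *Dlx5* and *Dlx6* are shown, since the results below set these 2 genes against each other. The sequences were read from the coding exons of the GENCODE M21 annotation of GRCm38, from base 409 to 588 of the *Dlx5* coding sequence and 511 to 690 of *Dlx6*. Capitals mark 18 bases of the helix that contacts DNA in the major groove.
Dlx5: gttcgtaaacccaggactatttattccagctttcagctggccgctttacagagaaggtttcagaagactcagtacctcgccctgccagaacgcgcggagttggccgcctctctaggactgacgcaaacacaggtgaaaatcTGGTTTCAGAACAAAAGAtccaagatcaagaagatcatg
Dlx6: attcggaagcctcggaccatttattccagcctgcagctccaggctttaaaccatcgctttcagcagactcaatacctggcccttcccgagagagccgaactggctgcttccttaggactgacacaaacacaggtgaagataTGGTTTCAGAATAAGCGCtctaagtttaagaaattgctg
The homeoboxes of *Dlx5* and *Dlx6* were identical at 132 of 180 bases (73.3%). Among the 15 pairs of *Dlx* genes, identity ran from 66.1% between *Dlx3* and *Dlx6* to 81.7% between *Dlx2* and *Dlx3*. The longest run without a difference between any 2 *Dlx* homeoboxes was 23 bases, so a read of 50 bases inside one did not match another *Dlx* homeobox. Over whole transcripts, no window of 50 bases of *Dlx2*, *Dlx3*, *Dlx5* or *Msx1* was found in another gene. The shared windows made up 6.09% of *Dlx6*, 5.19% of *Dlx1*, 0.963% of *Dlx4* and 0.464% of *Msx2*. Those of *Dlx6* and *Msx2* were found in 596 and 269 other genes. Library preparation by SMART-Seq and Nextera kits does not keep strand, so reads cannot be told apart where exons overlap on opposite strands. Such overlap covered 335 exon bases of *Dlx1* (6.21%, with Dlx1as), 79 of *Dlx4* (2.42%, with Dlx4os) and 104 of *Dlx6* (4.38%, with Dlx6os2), and none in the other 5 genes.

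Total counts were between 22035650 and 32563758 in Dlx5CE-E12.5 libraries and between 56355203 and 58166285 in Fgfr3CE-E12.5 libraries. Levels are given as CPM, the counts divided by library size and scaled to one common depth with edgeR's TMM factors, and fold changes as Dlx5CE-E12.5 over Fgfr3CE-E12.5 on the log2 scale, so that a positive value is higher in Dlx5CE-E12.5 cells. A gene was called if its adjusted p was under 0.05 and its log2 fold change was over 1 in size. The Cre sequence of the Dlx5 driver, cre, had 416, 467 and 456 counts in Dlx5CE-E12.5 libraries and 1 count in each Fgfr3CE-E12.5 library, in the direction the labels give. The iCre.ERT2 sequence of the Fgfr3 driver had 4802 and 3762 counts in Fgfr3CE-E12.5 libraries and 451, 519 and 521 counts in Dlx5CE-E12.5 libraries. Both drivers are fusions to an oestrogen receptor domain, and whether shared sequence gives the latter counts was not tested. The reporter sequence eyfp, which is in no genotype given above, had 3428, 3143 and 2999 counts against 0 and 6. It was called higher in Dlx5CE-E12.5 cells (11.27), and its source was not tested. The sequence tdtomato was called in the same direction (1.26), and egfp was not called (0.79). Of 10 markers of CAR stroma, 8 were higher in every Dlx5CE-E12.5 library, with a summed level of 33218 to 35258 CPM against 8781 and 13434 CPM. *Cxcl12* made up most of this sum, at 21252 to 22405 CPM against 8068 and 5802 CPM. *Foxc1* went the other way, at 34.9 to 56.2 CPM against 315 and 359 CPM, and was called higher in Fgfr3CE-E12.5 cells (-2.82). *Pdgfrb* overlapped between the groups. Summed chondrocyte, leukocyte and osteoblast markers were higher in Fgfr3CE-E12.5 libraries. The summed level of 12 chondrocyte markers was 8.51 to 13.2 CPM in Dlx5CE-E12.5 libraries, with *Col9a1*, *Matn1* and *Col10a1* at 0 counts in every one, against 3274 CPM in Fgfr3CE-E12.5 replicate 2 and 405 CPM in replicate 3, and 11 of the 12 were higher in both Fgfr3CE-E12.5 libraries. That of 14 leukocyte markers was 2320 to 2939 CPM against 6937 CPM in replicate 2 and 16777 CPM in replicate 3, with 12 of the 14 higher in both. That of 9 osteoblast and osteocyte markers was 3725 to 5264 CPM against 7077 and 9586 CPM, with 4 of the 9 higher in both. *Phex* went the other way, at 39.9 to 66.7 CPM against 15.5 and 6.63 CPM, and was called higher in Dlx5CE-E12.5 cells (2.23). *Bglap*, *Bglap2*, *Ibsp* and *Mepe* overlapped between the groups. Of the 10088 genes tested, 34.8% were higher in both Fgfr3CE-E12.5 libraries. Sums of erythroid markers (17751 to 36220 CPM against 13815 and 20544 CPM) and endothelial markers (21.95 to 42.9 CPM against 34.8 and 50.4 CPM) overlapped between the groups, and of 7 erythroid markers 2 were called higher in Dlx5CE-E12.5 cells and none higher in Fgfr3CE-E12.5 cells. Sums of 6 periosteal and tendon markers were 387 to 469 CPM against 474 and 565.5 CPM, but the list was split. Of the 6, 3 were higher in both Fgfr3CE-E12.5 libraries and 2 were higher in every Dlx5CE-E12.5 library. *Aspn* was called higher in Dlx5CE-E12.5 cells (1.70) and *Fmod* higher in Fgfr3CE-E12.5 cells (-1.75). The part of these cell types in the levels of *Dlx* and *Msx* genes was not tested, and in bulk samples fewer cells of a type and less RNA per cell cannot be told apart. The methods give longer, paired reads for Dlx5CE-E12.5 libraries and shorter, single reads for Fgfr3CE-E12.5 libraries, while the labels name the same sequencer for all, so read length and lineage cannot be told apart.

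Among the 10088 protein-coding genes and reporters that passed the filter, 29.5% were called, 13.1% higher in Dlx5CE-E12.5 cells and 16.4% higher in Fgfr3CE-E12.5 cells. *Dlx5*, *Dlx6* and *Msx1* passed this filter, and 1 of them, *Dlx6*, was called. The other 5 members were below a CPM of 10 in all 5 libraries. With the filter lowered to a CPM of 1, *Dlx3*, *Dlx4* and *Msx2* were tested too among 13225 genes, of which 29.5% were called, 12.9% higher in Dlx5CE-E12.5 cells and 16.6% higher in Fgfr3CE-E12.5 cells. In that fit *Dlx3* and *Msx2* were called higher in Fgfr3CE-E12.5 cells, but *Msx2* reached a CPM of 1 in the Fgfr3CE-E12.5 libraries alone, so it entered the test through the group in which it is higher, and its call is given as a description. The groups did not overlap for 7 of the 8 members, which were the 6 tested at a CPM of 1 and *Dlx2*, which passed neither filter. Among all 13225 genes tested at a CPM of 1, 66.6% did not overlap. The 3 members tested at a CPM of 10 are among the 6, and 68.9% of the 10088 genes did not overlap. Both Fgfr3CE-E12.5 libraries were above the others for 6 members, all of the 7 but *Dlx6*. The same held for 34.8% of the 10088 genes and 34.5% of the 13225, which do not include *Dlx2*.

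**Figure D1:**
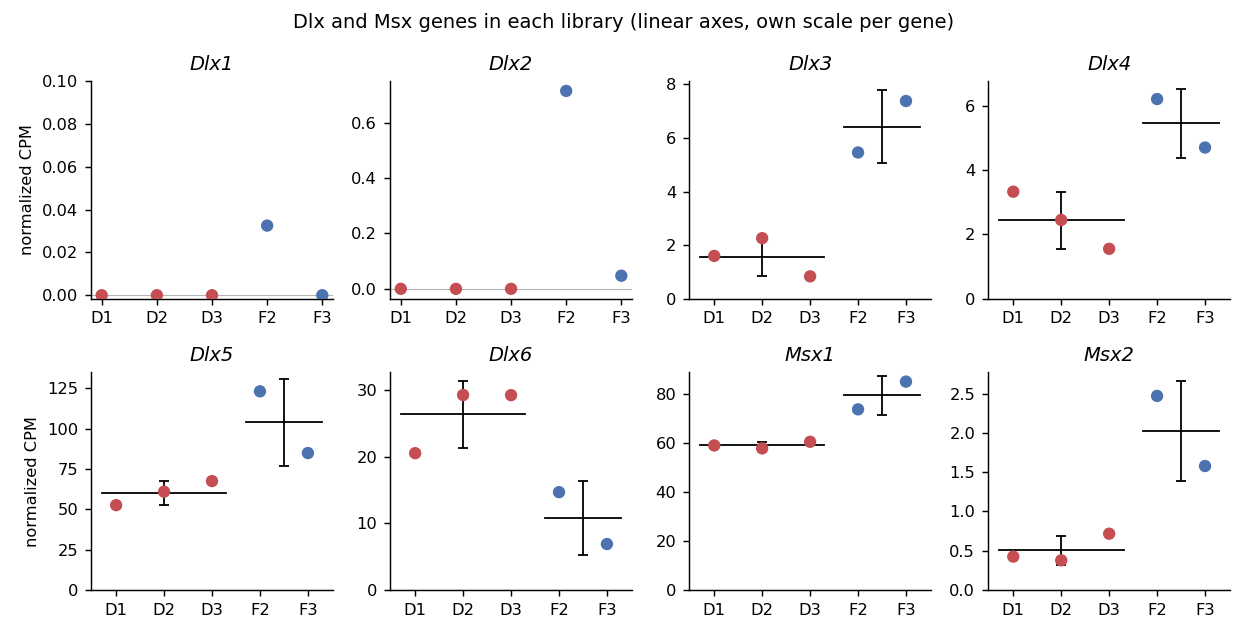
Normalized CPM of each *Dlx* and *Msx* gene in every library, on linear axes with a scale for each gene. D1 to D3 (red) are Dlx5CE-E12.5 replicates 1 to 3, F2 and F3 (blue) are Fgfr3CE-E12.5 replicates 2 and 3, and black lines give group means ± SD where shown. *Dlx6* was higher in the red libraries, and *Dlx3*, *Dlx4*, *Dlx5*, *Msx1* and *Msx2* were higher in both blue libraries.

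*Dlx5* (ENSMUSG00000029755; GRCm38 chromosome 6, 6877805 to 6882085, minus strand) encodes an activator of osteoblast genes. It had 1612, 1294 and 1697 counts in Dlx5CE-E12.5 replicates 1 to 3, and 7578 and 5380 counts in Fgfr3CE-E12.5 replicates 2 and 3. Its level was 52.6, 60.9 and 67.5 CPM in the former and 123 and 84.9 CPM in the latter. Every Fgfr3CE-E12.5 library was above every Dlx5CE-E12.5 library, and the 2 Fgfr3CE-E12.5 libraries differed from each other by 1.45 times. The group means were 60.3 ± 7.47 CPM (SD, n = 3) and 104 ± 27.1 CPM (SD, n = 2), 1.72-fold higher in Fgfr3CE-E12.5 cells. The log2 fold change was -0.79 (SE 0.20, adjusted p = 0.01495, quasi-likelihood test of edgeR, Benjamini-Hochberg adjusted), which is inside the fold threshold, so the gene was not called. Without Fgfr3CE-E12.5 replicate 3 it was -1.09 with an adjusted p of 0.00589, past both thresholds. After a trend on GC content was removed, it was -0.60 with an adjusted p of 0.0564 (edgeR). The adjusted p was also over 0.05 in other edgeR fits. These were the length trend removed (-0.62, adjusted p = 0.0622), replicate number as a block (-0.67, adjusted p = 0.0520) and Dlx5CE-E12.5 replicate 2 left out (-0.79, adjusted p = 0.0503).

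Transcripts of the driver give a second readout from the *Dlx5* locus. The cre level was 13.6, 21.99 and 18.1 CPM in Dlx5CE-E12.5 replicates 1 to 3. Counts of cre came to 25.8, 36.1 and 26.9 per 100 counts of *Dlx5* in the same libraries, in which tamoxifen had been given in the fetus and cells were sorted at postnatal day 21. So cre and *Dlx5* were detected together in every Dlx5CE-E12.5 library. How much *Dlx5* mRNA the creER allele makes is not given in the sources used here, and its part in the lower *Dlx5* level was not tested.

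*Dlx6* (ENSMUSG00000029754; chromosome 6, 6863334 to 6868568, plus strand) encodes a close relative of Dlx5 that acts with it in limb and bone development. The genes are separated by 9.24 kb, and the part of the creER allele at the *Dlx5* locus in the *Dlx6* level was not tested. *Dlx6* had 630, 622 and 736 counts in Dlx5CE-E12.5 replicates 1 to 3 and 904 and 437 counts in Fgfr3CE-E12.5 replicates 2 and 3. Scaled to depth, its level was 20.6, 29.3 and 29.3 CPM against 14.7 and 6.89 CPM. Every Dlx5CE-E12.5 library was above both Fgfr3CE-E12.5 libraries, which differed from each other by 2.13 times. The group means were 26.4 ± 5.04 CPM (SD, n = 3) and 10.8 ± 5.51 CPM (SD, n = 2), 2.44-fold higher in Dlx5CE-E12.5 cells, with a log2 fold change of 1.29 (SE 0.36, adjusted p = 0.02216, edgeR's quasi-likelihood test). The direction was the same in each fit with 1 library left out, but the call did not survive all of them. The adjusted p was 0.0627 without Dlx5CE-E12.5 replicate 2 and 0.0551 without replicate 3, and without Fgfr3CE-E12.5 replicate 3 the log2 fold change was 0.78 with an adjusted p of 0.0772 (edgeR).

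Set against each other within a library, which takes depth and scaling out, the pair differed between the groups. Only Dlx5CE-E12.5 mice carry the creER at the *Dlx5* locus, so driver genotype and lineage cannot be told apart here. The part of the creER allele in the shares below was not tested. *Dlx6* made up 28.1% (95% Wilson interval 26.3 to 29.997%), 32.5% (30.4 to 34.6%) and 30.3% (28.5 to 32.1%) of the summed *Dlx5* and *Dlx6* counts in Dlx5CE-E12.5 replicates 1 to 3. It made up 10.7% (10.02 to 11.3%) in Fgfr3CE-E12.5 replicate 2 and 7.51% (6.86 to 8.22%) in replicate 3. These intervals cover counting error only. The shares fell into separate ranges by group, with means of 30.3 ± 2.18% (SD, n = 3) and 9.09 ± 2.22% (SD, n = 2), a difference of 21.2 percentage points. A two-sided exact permutation test over the 5 libraries gave p = 0.1, which is the smallest p that 3 against 2 libraries allow. The difference lay between 19.6 and 22.8 points when each library was left out in turn.

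**Figure D2:**
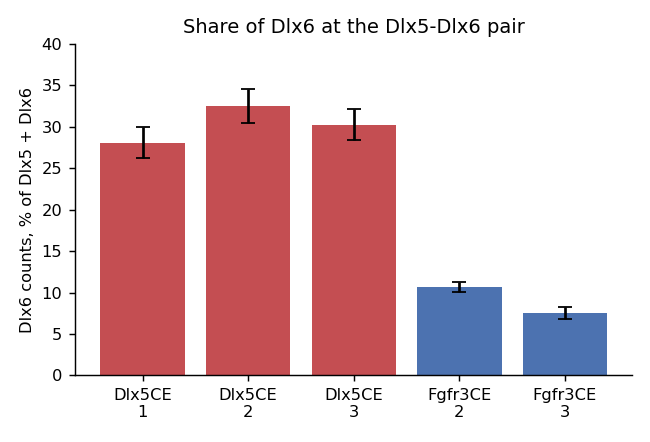
Share of *Dlx6* in the summed counts of *Dlx5* and *Dlx6* (y axis, percent) in each library (x axis), with 95% Wilson intervals as error bars. The 3 Dlx5CE-E12.5 bars (red) stand between 28.1% and 32.5% and the 2 Fgfr3CE-E12.5 bars (blue) at 10.7% and 7.51%.

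Long non-coding RNAs are made from the same loci. Dlx6os1, also known as Evf2, is transcribed across the region and acts on the enhancers of the pair in the brain. It had 412, 380 and 381 counts in Dlx5CE-E12.5 replicates 1 to 3 and 1256 and 598 counts in Fgfr3CE-E12.5 replicates 2 and 3, or 13.4, 17.9 and 15.2 CPM against 20.4 and 9.43 CPM. The groups overlapped, and in the fit over all counted features its log2 fold change was 0.02 (SE 0.34, adjusted p = 0.966, edgeR), where 32.8% of 10845 features were called, 16.2% higher in Dlx5CE-E12.5 cells and 16.7% higher in Fgfr3CE-E12.5 cells. Per count of *Dlx6* there were 0.654, 0.611 and 0.518 counts of Dlx6os1 in Dlx5CE-E12.5 libraries and 1.39 and 1.37 in Fgfr3CE-E12.5 libraries. Among 6 count ratios between members or their partners, this one and 3 others did not overlap between the groups, each with an exact permutation p of 0.1 (two-sided; 0.15 after Benjamini-Hochberg adjustment over the 6). All of these but the ratio of *Msx1* to *Msx2* were built from *Dlx5*, *Dlx6* and Dlx6os1, so they are not separate results. The share of other gene pairs whose ratios separate was not computed, while 68.9% of the 10088 single genes did not overlap. Ratios with *Dlx5*, *Dlx6* or Dlx6os1 share the limit of the driver genotype given above. The ratio of *Dlx5* to *Msx1* did overlap, at 0.890 to 1.11 in Dlx5CE-E12.5 libraries and 1.67 and 0.996 in Fgfr3CE-E12.5 libraries (exact permutation p = 0.4). Dlx6os2 had at most 18 counts in any library, Dlx1as at most 9 and Msx3, the remaining *Msx* gene, at most 4. Dlx4os had 19 to 43 counts in Dlx5CE-E12.5 libraries and 102 and 54 in Fgfr3CE-E12.5 libraries, and its levels overlapped (log2 fold change -0.15, standard error 0.58, adjusted p = 0.851, edgeR over all features at a CPM of 1, where 39.6% of 16708 were called, 22.5% higher in Dlx5CE-E12.5 cells and 17.1% higher in Fgfr3CE-E12.5 cells).

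*Msx1* (ENSMUSG00000048450; chromosome 5, 37820485 to 37824583, minus strand) encodes a repressor that keeps skeletal and dental progenitors undifferentiated. It had 1811, 1229 and 1523 counts in Dlx5CE-E12.5 replicates 1 to 3, a level of 59.1, 57.9 and 60.6 CPM. In Fgfr3CE-E12.5 replicates 2 and 3 it had 4543 and 5399 counts, a level of 73.8 and 85.2 CPM. The 3 Dlx5CE-E12.5 libraries were within 1.05 times of each other, and both Fgfr3CE-E12.5 libraries were above them. The means of 59.2 ± 1.35 CPM (SD, n = 3) and 79.5 ± 8.02 CPM (SD, n = 2) gave a log2 fold change of -0.43 (SE 0.13, adjusted p = 0.03375, edgeR's quasi-likelihood test), a 1.34-fold difference that is inside the fold threshold. By the adjusted p alone, *Dlx5* and *Msx1* were higher in Fgfr3CE-E12.5 cells and *Dlx6* in Dlx5CE-E12.5 cells, while 48.4% of all genes tested passed, 23.4% higher in Dlx5CE-E12.5 cells and 25% higher in Fgfr3CE-E12.5 cells. The *Msx1* difference was -0.04 (adjusted p = 0.789, edgeR) after the GC trend was removed, and -0.18 (adjusted p = 0.234, edgeR) after a trend on transcript length was removed. With library size as the only scaling it was -0.64.

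*Dlx3* (ENSMUSG00000001510; chromosome 11, 95120119 to 95125296, plus strand), which drives osteoblast, hair and tooth differentiation, had 49, 48 and 21 counts in Dlx5CE-E12.5 replicates 1 to 3 and 336 and 468 counts in Fgfr3CE-E12.5 replicates 2 and 3. Its level was 1.60, 2.26 and 0.835 CPM against 5.46 and 7.38 CPM, without overlap. In the fit at a CPM of 1 the gene was called higher in Fgfr3CE-E12.5 cells, with a log2 fold change of -2.02 (SE 0.48, adjusted p = 0.0137, edgeR's quasi-likelihood test) and means that differed 4.10-fold. Without Fgfr3CE-E12.5 replicate 3 the adjusted p was 0.0717 at a log2 fold change of -1.81. Its pair partner *Dlx4* (ENSMUSG00000020871; chromosome 11, 95140447 to 95146263, minus strand) lies 15.2 kb away. It had 102, 52 and 39 counts, or 3.33, 2.45 and 1.55 CPM, in Dlx5CE-E12.5 replicates 1 to 3 and 382 and 298 counts, or 6.21 and 4.70 CPM, in Fgfr3CE-E12.5 replicates 2 and 3. Its log2 fold change of -1.13 (SE 0.43, adjusted p = 0.0705, edgeR) missed the threshold, and the adjusted p passed it in the edgeR exact test (0.0353) and in DESeq2 (0.0383). After a GC or a length trend was removed, the log2 fold change was -0.75 (adjusted p = 0.217, edgeR) or -0.85 (adjusted p = 0.149, edgeR).

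*Msx2* (ENSMUSG00000021469; chromosome 13, 53466884 to 53473074, minus strand) encodes a repressor that binds Dlx5 and opposes it on bone gene promoters. It had 13, 8 and 18 counts in Dlx5CE-E12.5 replicates 1 to 3 and 152 and 100 counts in Fgfr3CE-E12.5 replicates 2 and 3, or 0.424, 0.377 and 0.716 CPM against 2.47 and 1.58 CPM. Both Fgfr3CE-E12.5 libraries were above the others. They are also the ones that took the gene past the filter, and with that limit the fit gave a log2 fold change of -1.97 (SE 0.57, adjusted p = 0.0275, edgeR's quasi-likelihood test at a CPM of 1) and means that differed 4.004-fold. The adjusted p was 0.0890 without Dlx5CE-E12.5 replicate 2. There were 139, 154 and 84.6 counts of *Msx1* per count of *Msx2* in Dlx5CE-E12.5 libraries and 29.9 and 54.0 in Fgfr3CE-E12.5 libraries.

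*Dlx1* and *Dlx2* (chromosome 2, 71528113 to 71533981 on the plus strand and 71543408 to 71546754 on the minus strand) act in forebrain and first-arch development. *Dlx1* had 2 counts in Fgfr3CE-E12.5 replicate 2 and none in the other 4 libraries. *Dlx2* had 44 counts in Fgfr3CE-E12.5 replicate 2, 3 counts in replicate 3 and none in Dlx5CE-E12.5 libraries. Against the 3 counts per library that a count of 0 allows, a mean of 0.119 CPM, the mean of the 2 Fgfr3CE-E12.5 libraries was at least 3.19-fold higher. This bound rests on 1 library, replicate 2, at 0.715 CPM. Replicate 3, at 0.0473 CPM, was below 0.119 CPM, so no lower bound holds for it.

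**Figure D3:**
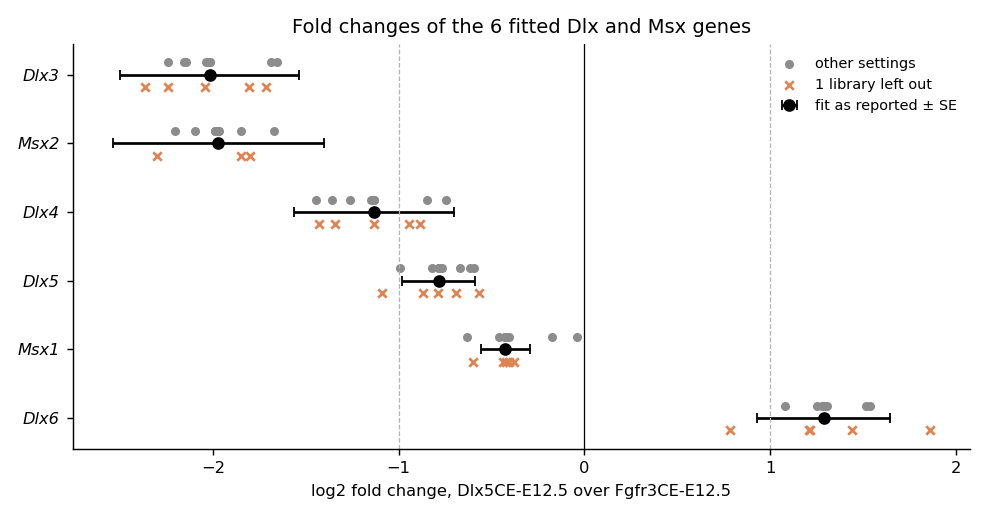
Log2 fold change (x axis, Dlx5CE-E12.5 over Fgfr3CE-E12.5) of the 6 *Dlx* and *Msx* genes that could be fitted (y axis), as black points with standard errors, from the fit at a CPM of 10 for *Dlx5*, *Dlx6* and *Msx1* and at a CPM of 1 for the others. Grey points are other processing settings, orange crosses are fits with 1 library left out, and dashed lines mark the fold threshold. *Dlx6* lies to the right of 0 in every fit, between 0.78 and 1.86, and the other 5 genes lie to the left.

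Levels of different genes were compared as CPM per kilobase of exon. In Dlx5CE-E12.5 cells *Dlx5* was highest at 23.2 to 29.8 CPM per kilobase, followed by *Msx1* at 18.7 to 19.6 and *Dlx6* at 8.65 to 12.3. These 3 ranges did not overlap. *Dlx4* (0.474 to 1.02) and *Dlx3* (0.320 to 0.867) overlapped, *Msx2* was below both at 0.115 to 0.218 CPM per kilobase, and *Dlx1* and *Dlx2* were at 0. In Fgfr3CE-E12.5 cells the order was *Dlx5* (54.4 and 37.5 CPM per kilobase), *Msx1* (23.8 and 27.5), *Dlx6* (6.19 and 2.90), *Dlx3* (2.09 and 2.83), *Dlx4* (1.90 and 1.44), *Msx2* (0.753 and 0.481) and *Dlx2* (0.250 and 0.0166). Each neighbouring pair of these 7 was separated in range, with *Dlx6* and *Dlx3* closest in replicate 3 (2.90 and 2.83 CPM per kilobase) and farther apart in replicate 2 (6.19 and 2.09). So *Dlx5* and *Msx1* were the leading members in both lineages.

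Genes around the members were examined next, out to 500 kb from each start site. Around the 5 loci, the *Dlx5* and *Dlx6* locus had a single tested neighbour, *Sem1*, a proteasome subunit gene, at a log2 fold change of -0.08 (SE 0.13, adjusted p = 0.636, edgeR). A nearer gene, *Sdhaf3*, 92.7 kb from the start of *Dlx6*, missed the filter and was not tested. It was at 8.68, 8.71 and 8.83 CPM in Dlx5CE-E12.5 libraries and lower, at 5.72 and 3.63 CPM, in Fgfr3CE-E12.5 libraries. None of 7 tested neighbours of *Msx1* and none of 3 of *Msx2* was called. Around *Dlx1* and *Dlx2*, 1 of 7 was called, *Slc25a12*, a mitochondrial carrier gene, at -1.18 (adjusted p = 0.00346, edgeR). Around *Dlx3* and *Dlx4*, 3 of 11 were called, all higher in Fgfr3CE-E12.5 cells: *Lrrc59* at -1.59, *Xylt2* at -1.19 and *Col1a1*, the bone collagen gene, at -1.07. Among all genes tested 29.5% were called, so these counts do not set the neighbours of *Dlx3* and *Dlx4* apart. Genes whose levels across the 5 libraries followed a member most closely were found by the root mean square difference of centred log2 CPM. For *Dlx5* these were *Evi5* (0.0112), *Fbxl7* (0.0633) and *Adcy2* (0.0726). For *Dlx6* they were *Pappa* (0.0602), which encodes a protease of IGF-binding proteins, *Fgd6* (0.0622) and *Ascc3* (0.0638). For *Msx1* they were *Gtf2h3* (0.0251), *Rrp1* (0.0271) and *Uspl1* (0.0274). With 5 libraries, such likeness is a description only.

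**Figure D4:**
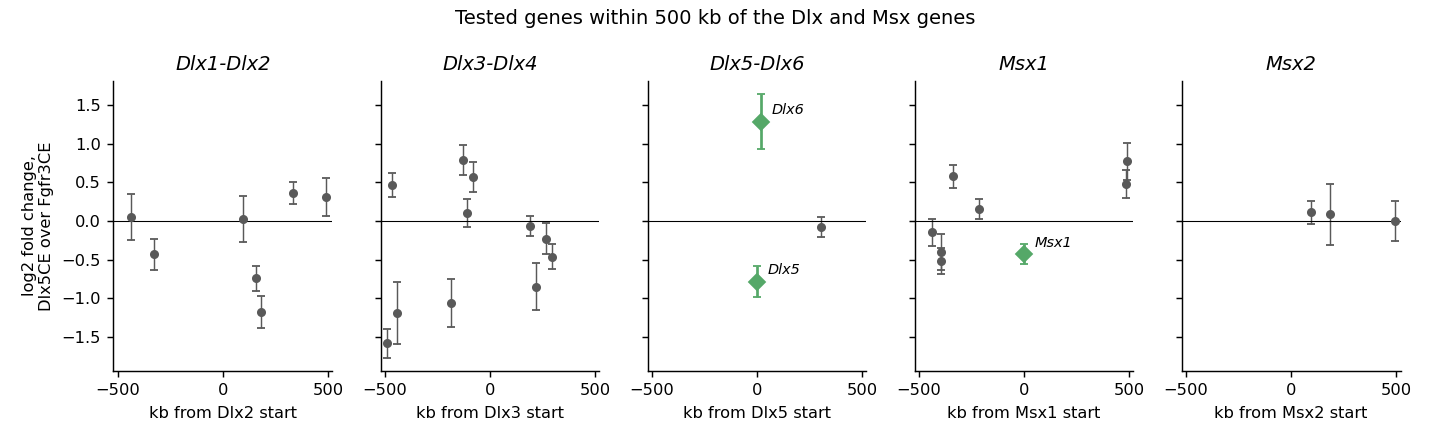
Log2 fold change ± standard error (y axis, Dlx5CE-E12.5 over Fgfr3CE-E12.5) of tested protein-coding genes against distance in kb from the start of a member (x axis), for the 5 loci. Green diamonds are the 3 members that passed the filter and grey points their neighbours. *Dlx5* at -0.79 and *Dlx6* at 1.29 lie on opposite sides of 0 while *Sem1* lies at -0.08.

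BMP signalling, an input to *Dlx* and *Msx* transcription, differed gene by gene. Of 19 tested BMP genes, 3 were called higher in Dlx5CE-E12.5 cells, 6 higher in Fgfr3CE-E12.5 cells and 10 were not called, where 13.1% and 16.4% of all genes tested were called in these directions. The median log2 fold change was -0.49 against -0.01 over all genes tested. The ligand gene *Bmp4* was at 403, 295 and 274 CPM in Dlx5CE-E12.5 libraries and 73.6 and 60.2 CPM in Fgfr3CE-E12.5 libraries, a log2 fold change of 2.28 (adjusted p = 0.000336, edgeR). *Grem1*, a BMP antagonist (1.52), and the receptor gene *Bmpr2* (1.01) were the other 2 called in that direction. The signal transducers *Smad1* (-2.09) and *Smad4* (-2.58), the inhibitory *Smad6* (-3.64) and *Smad7* (-1.05), the antagonist *Nog* (-3.80) and *Id4* (-4.23) were called higher in Fgfr3CE-E12.5 cells. *Nog* passed the filter through the Fgfr3CE-E12.5 libraries alone. The other *Id* genes, *Id1* (0.60), *Id2* (0.26) and *Id3* (0.31), were not called, and *Id3* overlapped between the groups.

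Genes of proteins known to bind or act with Dlx or Msx proteins were compared in the same way. Of 9 tested, none was called higher in Dlx5CE-E12.5 cells and 5 were called higher in Fgfr3CE-E12.5 cells, against 13.1% and 16.4% of all genes tested, and their median log2 fold change was -1.54 against -0.01. The 5 were *Twist1* (-3.21), a repressor of osteoblast differentiation, *Lef1* (-2.96), a mediator of Wnt signals, the Groucho co-repressor genes *Tle4* (-2.24) and *Tle1* (-1.63), and *Pias2* (-1.54), whose product binds Msx2. *Twist1*, *Lef1* and *Tle4* passed the filter through the Fgfr3CE-E12.5 libraries alone, so the direction of the list rests in part on the filter. *Twist2*, which missed it, was at 8.61, 8.52 and 16.7 CPM against 6.05 and 4.796 CPM, and the fit at a CPM of 1 gave it 1.08 on the log2 scale (adjusted p = 0.0535, edgeR). *Maged1*, which encodes a binding partner of Dlx5 and Msx2, was at 1064, 1015 and 1061 CPM against 829 and 767 CPM and was not called (0.39, adjusted p = 0.0631, edgeR). *Ndn*, *Spen* and *Tle3* were not called either.

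Bone genes, among them known targets of Dlx5 and Msx2, were also compared. Of 11 tested, 1 was called higher in Dlx5CE-E12.5 cells, 5 higher in Fgfr3CE-E12.5 cells and 5 were not called, against 13.1% and 16.4% of all genes tested in these directions, and their median was -0.99 against -0.01 over all genes. The osteoblast regulator *Sp7* (-1.03), the phosphatase gene *Alpl* (-1.61), the matrix genes *Spp1* (-2.61) and *Col1a1* (-1.07) and the osteocyte gene *Dmp1* (-2.17) were higher in Fgfr3CE-E12.5 cells, and *Phex*, an endopeptidase gene of phosphate balance (2.23), was higher in Dlx5CE-E12.5 cells. *Runx2*, the master regulator of osteoblasts, was at 134, 198 and 201 CPM against 129 and 94.6 CPM and was not called (0.67, adjusted p = 0.0493, edgeR). *Ibsp*, a target of Dlx5, was at -0.21 (adjusted p = 0.564, edgeR). *Sp7*, *Runx2*, *Spp1* and *Atf4* are not among the osteoblast markers summed above, and the other 7 of the 11 are.

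**Figure D5:**
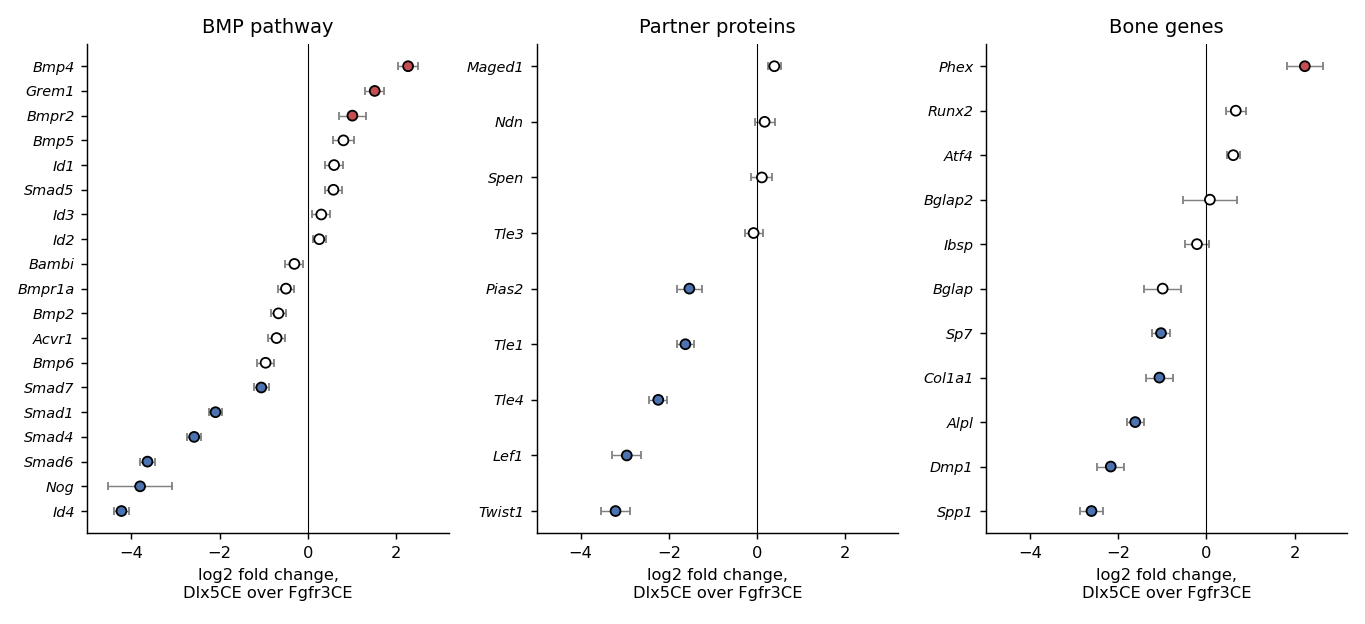
Log2 fold change ± standard error (x axis, Dlx5CE-E12.5 over Fgfr3CE-E12.5) of the tested BMP pathway genes, partner proteins and bone genes (y axis, 3 panels). Red points were called higher in Dlx5CE-E12.5 cells, blue points higher in Fgfr3CE-E12.5 cells, and white points were not called. *Bmp4* at 2.28 and *Phex* at 2.23 lie farthest to the right, and *Id4* at -4.23 farthest to the left.

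Other homeobox genes of the NK-like subclass, to which *Dlx* and *Msx* belong, were mostly near 0. Of 39 listed, 18 had a row in the count table and 2 passed the filter. *Hhex*, which is expressed in blood and endothelial progenitors, was at 3.26, 2.40 and 1.55 CPM in Dlx5CE-E12.5 libraries and 10.04 and 19.1 CPM in Fgfr3CE-E12.5 libraries and was called (-2.59, adjusted p = 0.00232, edgeR). *Hlx* was at 71.0 to 86.9 CPM against 36.5 and 57.5 CPM and was not called (0.73, adjusted p = 0.0297, edgeR). At a CPM of 1, 6 were tested, with *Barx2* called higher in Dlx5CE-E12.5 cells (3.10) and *Hhex*, *Nkx3-2* (-4.52) and *Tlx1* (-3.90) called higher in Fgfr3CE-E12.5 cells. *Barx2*, *Nkx3-2* and *Tlx1* reached a CPM of 1, and *Hhex* a CPM of 10, in the group in which they were higher and not in the other, so these calls are descriptions. *Nkx3-2*, a repressor that holds chondrocytes immature, had 3, 1 and 4 counts in Dlx5CE-E12.5 libraries and 130 and 180 in Fgfr3CE-E12.5 libraries.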

How the data were processed

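Bulk RNA-seq counts of 3 Dlx5CE-E12.5 and 2 Fgfr3CE-E12.5 libraries were used, grouped by the genotype in the labels. The deposited values were whole-number read counts per gene, not normalized. According to the methods and the submitters' processing notes, the authors amplified cDNA with SMART-Seq v4, prepared Nextera XT libraries and aligned reads to mm10 with TopHat2 2.0.13 and Bowtie2 2.2.1. HTSeq is named without a version, and its strand setting is not given in the sources used here. The deposited tables of depth-normalized and rlog-transformed values were not used.

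Identifiers were matched to GENCODE M21 of the same build (GRCm38); 29965 of 30046 matched, 5 were reporter sequences and 76 did not match. Protein-coding genes and reporters that reached a CPM of 10 in 2 or more libraries entered the test in edgeR 4.0.16, run under R 4.3.3 (TMM, quasi-likelihood test, Benjamini-Hochberg adjustment over all genes tested). Standard errors (SE) are the log2 fold change divided by the square root of F. DESeq2 1.42.0 and the edgeR exact test were alternatives, as were other scalings, filters, thresholds, the removal of GC and length trends, a replicate block and leaving out each library. Named genes were the 8 members, their non-coding partners, lists of BMP, partner, bone, NK-like homeobox and marker genes, protein-coding genes within 500 kb, and the 3 tested genes closest in level to each member that passed the filter. A listed partner gene and the *Msx* homeobox sequences are not reported here. Members, lists and ratios were chosen with earlier results of these data known. Fits were tested on simulated data. No pair of libraries agreed within sampling noise (chi-square per degree of freedom 26.3 or more). The labels do not tie libraries to separate animals, so p-values measure the spread between these libraries. Count intervals cover counting error only.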

Additional observations from a re-analysis of the deposited data

How the results depend on the processing

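The log2 fold change of each fitted member kept its sign in every setting that was run. The cause of each shift below was not tested. With the adjusted p alone, 2363 genes (23.4%) were higher in Dlx5CE-E12.5 cells and 2517 (25%) in Fgfr3CE-E12.5 cells. Of the 3 members tested there, 2 (*Dlx5* at -0.79 and *Msx1* at -0.43) were called higher in Fgfr3CE-E12.5 cells. With the adjusted p alone and the filter at a CPM of 1, there were 4 such members among the 6 tested. The share of all genes passing in that last setting was not computed, so the count of 4 has no background to be set against. By both thresholds, the number of members called higher in Fgfr3CE-E12.5 cells was 2 with the filter at a CPM of 1 and 2 with no filter, in place of 0. In this direction 16.6% of 13225 genes were called at a CPM of 1, and 2273 of 17092 genes with no filter. *Dlx4* passed the threshold with library size only (-1.36), the edgeR exact test (-1.13), DESeq2 (-1.14), all features (-1.26) and the replicate block (-1.45).

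When each library was left out in turn, members called higher in Dlx5CE-E12.5 cells numbered 0 to 1 and members higher in Fgfr3CE-E12.5 cells 0 to 1, or 0 to 1 and 1 to 3 at a CPM of 1. All genes called numbered 1029 to 1465 and 997 to 1680 in the 2 directions, the lowest without Fgfr3CE-E12.5 replicate 3. Log2 fold changes ran from -2.37 to -1.71 for *Dlx3*, -1.43 to -0.89 for *Dlx4*, -1.09 to -0.57 for *Dlx5*, 0.78 to 1.86 for *Dlx6*, -0.60 to -0.38 for *Msx1* and -2.30 to -1.80 for *Msx2*. *Msx2* had no value without an Fgfr3CE-E12.5 library because it then missed the filter. A lone Fgfr3CE-E12.5 library was assumed to vary like the others.

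With library size only, 66.3% of calls were higher in Fgfr3CE-E12.5 cells (1985 against 1009) in place of 55.6%, and the share fell to 46.1% without Fgfr3CE-E12.5 replicate 2 (1253 against 1465) and 49.2% without replicate 3 (997 against 1029), where most calls were higher in Dlx5CE-E12.5 cells. With library size only, the median of all genes moved from -0.01 to -0.22; with the length trend removed it was 0.11. Replicate numbers 2 and 3 occur in both groups but mark no shared animal or batch, and the deviations of same-numbered libraries correlated at 0.05 over genes. With the replicate block, 1382 and 1678 genes were called, *Msx2* lost its call (-1.85, adjusted p = 0.0863, edgeR) and *Dlx6* stayed called at 1.54. *Dlx1*, *Dlx2* and *Msx2* had at most 18 counts each in Dlx5CE-E12.5 libraries, and the part of depth in this was not tested.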
